A study of Mus musculus with 12 samples.

Results

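The genes of sphingosine-1-phosphate (S1P) signaling were examined in RNA-seq counts of differentiated primary mouse oligodendrocytes (OLs): the receptors S1pr1, S1pr2, S1pr3, S1pr4 and S1pr5, the kinases Sphk1 and Sphk2 that make S1P, the lyase Sgpl1 that degrades it, and the exporter Spns2. These 9 of the 56860 named genes of the count table were selected by symbol. The family was picked from results of the same comparison of siEgr2 and siNC libraries, so the values of its members in that comparison are a description. The p-values of single members are not given, and their calls and counts at p thresholds carry no inference. Of the 9 genes, 8 had enough counts to pass the low-count filter, and S1pr4 did not.

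The OLs came from C57BL/6J mice; O4+ cells were isolated from newborn cortex with beads, whereas the labels name the medial prefrontal cortex, and were then differentiated in culture. One group of 6 libraries received siEgr2, an interference reagent against the transcription factor Egr2, for 48 h, and the other group of 6, labelled siNC, is the control. Whether siEgr2 was an siRNA or a plasmid is not settled by the study's text, which names either. The labels do not say whether libraries of a group came from separate cultures, so p-values measure only the spread between these libraries, which may be technical. Egr2 itself, the target, ranged from 3.89 to 7.06 CPM in siNC and from 2.22 to 4.86 CPM in siEgr2, with a log2 fold change of -0.51 (standard error 0.21), and did not pass the call (adjusted p = 0.0981, edgeR's quasi-likelihood test). CPM are counts scaled to a common library size, with TMM factors that correct for differences in RNA composition. The siNC libraries held 28682946 to 39383014 counts and the siEgr2 libraries 8034251 to 16683677. Reads of the ribosomal RNA gene Rn18s-rs5 took 0.142% to 1.05% of siNC and 10.5% to 16.5% of siEgr2 libraries. Both depth and this share differed between the groups without overlap.

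S1P is a signaling lipid made when sphingosine, freed from ceramide, is phosphorylated inside the cell. It is exported and acts on G protein-coupled receptors at the cell surface, while inside the cell it is cleaved by the lyase or turned back into sphingosine by phosphatases. In the brain, S1pr5 is known as a receptor of the OL lineage, S1pr1 and S1pr3 are prominent in astrocytes, S1pr1 also in endothelial cells, and S1pr4 belongs mainly to blood and lymphoid cells. S1P receptors are the targets of fingolimod and related drugs used in multiple sclerosis.

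The treatment targets Egr2, a factor that binds a GC-rich motif. Shown are the promoter of S1pr3, the member with the largest difference between the groups, and that of Sphk2, the only member with a match to a form of this motif. Each line gives 250 bases before to 50 bases after an annotated start site, 5′ to 3′ on the strand of the gene, from RefSeq (GRCm38.p6), at chr13:51408368-51408667 (plus strand) for S1pr3 and chr7:45717953-45718252 (minus strand) for Sphk2. Capitals mark GTGGGCG, a short core of the Egr binding motif.
S1pr3: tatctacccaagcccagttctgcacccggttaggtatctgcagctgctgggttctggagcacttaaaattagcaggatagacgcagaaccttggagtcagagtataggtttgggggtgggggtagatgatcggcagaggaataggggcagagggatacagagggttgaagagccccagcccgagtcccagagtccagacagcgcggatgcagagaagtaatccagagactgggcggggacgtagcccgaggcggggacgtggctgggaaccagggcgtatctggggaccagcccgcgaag
Sphk2: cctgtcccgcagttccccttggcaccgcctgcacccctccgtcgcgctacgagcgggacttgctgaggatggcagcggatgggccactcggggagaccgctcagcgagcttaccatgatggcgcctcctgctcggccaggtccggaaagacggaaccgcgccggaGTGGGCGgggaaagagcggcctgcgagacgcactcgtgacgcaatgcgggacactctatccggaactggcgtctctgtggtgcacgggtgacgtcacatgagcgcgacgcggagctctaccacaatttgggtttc
In the S1pr3 window neither GCGNGGGCG, the longer form of the Egr motif, nor GTGGGCG occurred on either strand. RefSeq windows matched 8 of the 9 genes, with 13 windows in all, S1pr1 being the gene without one. GCGNGGGCG was found in 0 of these 13 windows, against 5.55% of all 32851 promoter windows. GTGGGCG was found in 1 of the 13, the Sphk2 window shown, where the match starts 85 bases before the start site, against 7.97% of all windows. The longer form contains the shorter where its N is T, and no match says only that these letters are not in the window. The GC content of the S1pr3 window was 59.0%, that of the Sphk2 window 66.0%, and the median of all windows 52.7%.

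On the mouse genome build GRCm38, called mm10 in the submitters' processing notes, S1pr3 lies on chromosome 13 from 51408639 to 51422797 and S1pr1 on chromosome 3 from 115710433 to 115715072. S1pr2 (from 20962361 to 20976781) and S1pr5 (from 21242912 to 21248443) are both on chromosome 9. The coding sequences of the 5 receptors were 58.1% to 66.1% identical at the base level in pairwise alignments, with the highest value between S1pr1 and S1pr3 and the lowest between S1pr3 and S1pr5. No stretch of 50 bases, the read length, was shared between transcripts of different members. The share of such stretches also present in transcripts of other genes was 0% for S1pr1 and S1pr3, 4.55% for Sphk1 and 18.3% for Sphk2. Sphk2 overlaps exons of Dbp (13.0% of its exon bases) and Rpl18 (8.97%) on the opposite strand. Smaller overlaps on the opposite strand took 4.02% of the exon bases of Sphk1, 3.21% of Spns2, 2.04% of S1pr5 and 1.01% of S1pr3. Whether counting used strand is not given in the sources used here, so the assignment of reads is least certain for Sphk2.

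Among the receptors, S1pr3 had the highest level and the largest difference. It ranged from 254 to 298 CPM in siNC, with a median of 278, and from 126 to 147 CPM in siEgr2, with a median of 131. All 6 siEgr2 libraries lay far below all 6 siNC libraries. S1pr3 thus fell from a mean of 279 ± 15.8 CPM to 134 ± 9.24 CPM (SD, n = 6 each), and its siEgr2 values rested on 1035 to 2154 counts. On the log2 scale the change was -1.06 with a standard error of 0.051. It was -1.06 with all libraries thinned to the smallest total and -1.05 with structural RNA genes left out. The cultures held RNA of several cell types, and in such a mixture fewer cells of a type and less RNA per cell cannot be told apart. Of all tested genes, 1.90% had a lower log2 fold change than S1pr3.

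S1pr1, the receptor that couples mainly to inhibitory G proteins, followed in level. Its siNC libraries ran from 84.4 to 93.1 CPM, with a median of 89.9, and its siEgr2 libraries from 43.5 to 58.5 CPM, with a median of 51.6. Again the groups did not overlap. Mean S1pr1 fell from 89.7 ± 3.05 CPM to 51.3 ± 4.96 CPM (SD, n = 6 each). This is -0.81 on the log2 scale, with a standard error of 0.061, and was -0.76 after thinning and -0.80 with structural RNA genes left out. S1pr1 also had the tightest siNC libraries of the family, with a coefficient of variation of 3.40%.

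S1pr2, a receptor that couples to several classes of G protein, had a median of 21.9 CPM in siNC (17.0 to 24.4) and 22 CPM in siEgr2 (18.9 to 26.6). The ranges overlapped widely. Its log2 fold change was 0.07 with a standard error of 0.11, and it was not called. With libraries scaled by total count only, the value was -0.12, so its sign depends on the scaling, and after thinning it was 0.21.

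S1pr5, the receptor known from OLs, was low, with a median of 6.64 CPM in siNC (5.03 to 7.38) and 5.20 CPM in siEgr2 (2.82 to 7.48). The highest siEgr2 library exceeded every siNC library, and the lowest was siEgr2 replicate 5, the library with the fewest counts, where S1pr5 rested on 22 counts. The log2 fold change of -0.34 had a standard error of 0.18 and was not called. With all libraries thinned to the smallest total it was -0.65, not called because its adjusted p lay just above the threshold. S1pr4 had 0 counts in all 12 libraries. A count of 0 allows a level of up to 3 counts, or 0.0718 to 0.0982 CPM in siNC and 0.185 to 0.384 CPM in siEgr2 libraries, as far as counting error goes.

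**Figure D1:**
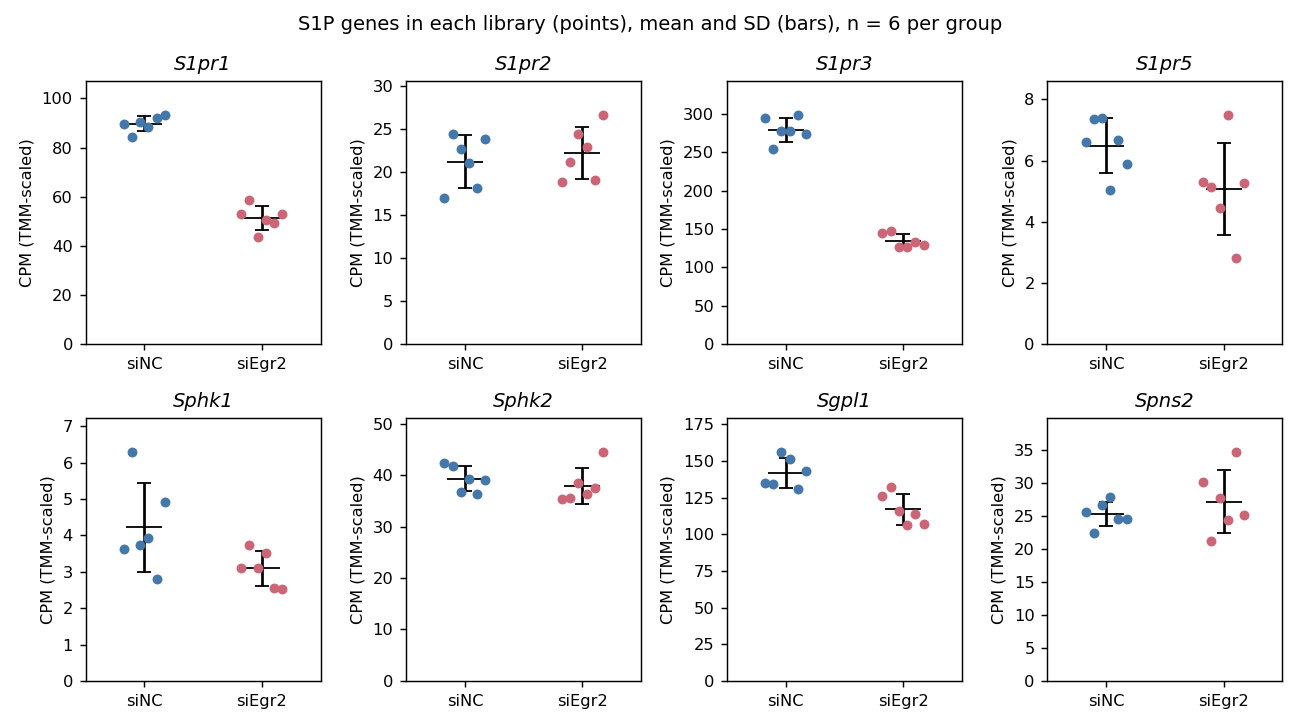
Levels of the 8 tested S1P genes in TMM-scaled CPM (y axes start at 0) in each siNC and siEgr2 library, with points for libraries and bars for mean and SD (n = 6 per group). For S1pr1 and S1pr3 every siEgr2 point lies below every siNC point, and for the other 6 genes the groups overlap.

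Among the enzymes, Sphk2, the kinase found in the nucleus and mitochondria, was the more abundant. It had a median of 39.2 CPM in siNC (36.4 to 42.3) and 37.0 CPM in siEgr2 (35.3 to 44.5), and its log2 fold change of -0.05 was smaller than the standard error of 0.067. Sphk1, the cytosolic and inducible kinase, had a median of 3.83 CPM in siNC (2.81 to 6.29) and 3.09 CPM in siEgr2 (2.53 to 3.74). It was the most variable member in siNC, with a coefficient of variation of 28.9%, and its siEgr2 libraries held 20 to 50 counts. Its log2 fold change was -0.44 with a standard error of 0.20, and it was not called. Without siNC replicate 2, the library with the highest level, the value was -0.29. Divided by exon length, Sphk2 stood at 11.3 ± 2.7 times the level of Sphk1 in siNC and at 14.5 ± 3.5 times in siEgr2 (SD, n = 6), with overlapping ranges.

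Sgpl1, the lyase that removes S1P for good, ranged from 131 to 156 CPM in siNC (median 139) and from 106 to 132 CPM in siEgr2 (median 115). The groups met only at their edges, where the highest siEgr2 library exceeded the lowest siNC library. Its log2 fold change was -0.28 with a standard error of 0.062. Sgpl1 was not called because of the fold threshold, without which it is the third member called lower, as are 11.3% of all tested genes. Spns2, which exports S1P from the cell, had a median of 25.1 CPM in siNC (22.5 to 27.9) and 26.5 CPM in siEgr2 (21.2 to 34.7). Its highest and lowest values were both in siEgr2. The log2 fold change was 0.10 (standard error 0.10), not called, and -0.08 with total count scaling.

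Genes were called where the adjusted p was below 0.05 and the log2 fold change beyond 0.5 in either direction. By this call, 2 of the 8 tested members were lower in siEgr2, S1pr1 and S1pr3. The same call held for 5.08% of the 16600 tested genes in that direction. No member was called higher, where 2.63% of tested genes were. For the members this 0 was the count in edgeR, DESeq2 and limma-voom alike, and at an unadjusted p under 0.05 in edgeR 0 members were higher and 4 lower, against 15.1% and 16.9% of all tested genes. By the adjusted p alone 0 members were higher and 3 lower, against 8.57% and 11.3% of all tested genes, and with a log2 fold change beyond 1 as well 0 were higher and 1 lower, against 1.07% and 1.18%. The groups did not overlap, with siEgr2 lower, in the same 2 members and in 7.00% of all tested genes. Since the family was picked with this comparison known, these counts carry no inference. The median log2 fold change of the 8 members was -0.31, against 0.0046 for all tested genes. With total count scaling, which counts the ribosomal reads, the median of all tested genes was -0.18, with 237 genes called higher and 1737 lower in place of 437 and 844, and 4 members were called lower, S1pr5 and Sphk1 in addition.

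Levels of different genes were compared per kilobase of merged exons. In siNC the order was S1pr3 with 62.6 CPM per kb, S1pr1 with 29.4, Sgpl1 with 23.0, Sphk2 with 9.44, Spns2 with 6.20, S1pr2 with 2.66, S1pr5 with 2.60 and Sphk1 with 0.883 CPM per kb. Every step of this order was free of overlap between libraries except that from S1pr2 to S1pr5, which were in this order in 3 of 6 libraries. In siEgr2, Sgpl1 (19.0 CPM per kb) stood above S1pr1 (16.8 CPM per kb) in 6 of 6 libraries, although their ranges overlapped. Those of Sphk2 and Spns2 and of S1pr2 and S1pr5 overlapped as well. With the longest transcript in place of merged exons, Sgpl1 stood above S1pr1 in siNC too, so the order of this pair depends on the gene model.

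**Figure D2:**
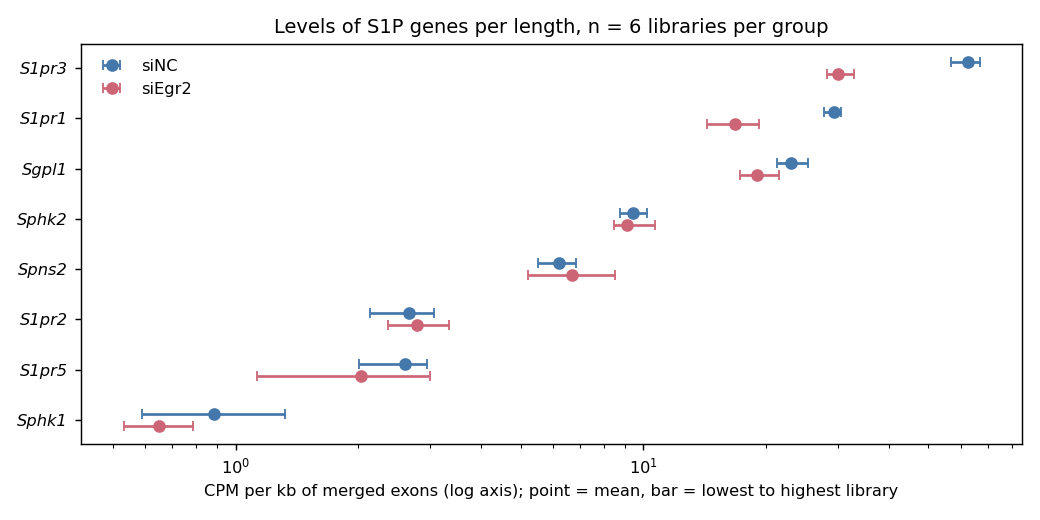
Levels of the 8 detected S1P genes in CPM per kb of merged exons on a log axis, with points for group means and bars from the lowest to the highest of 6 libraries. S1pr3 leads in both groups at 62.6 and 30.1 CPM per kb, and Sphk1 is lowest at 0.883 and 0.647 CPM per kb.

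The summed receptor level was 97.2 ± 3.91 CPM per kb in siNC (90.6 to 102) and 51.7 ± 3.43 CPM per kb in siEgr2 (47.3 to 56.8; SD, n = 6 each). S1pr3 made up 64.3% ± 1.3 of it in siNC (62.8% to 65.8%) and 58.2% ± 1.9 in siEgr2 (55.9% to 60.1%). The share of S1pr2 was 2.75% ± 0.49 in siNC and 5.41% ± 0.92 in siEgr2, also without overlap, while its level in CPM was about the same. S1pr1 held 30.3% ± 0.72 and 32.5% ± 1.3, and S1pr5 2.67% ± 0.41 and 3.92% ± 1.2, with overlapping ranges (SD, n = 6). The ratio of S1pr3 to S1pr1 does not depend on how libraries are scaled. It lay between 2.01 and 2.24 in siNC and between 1.67 and 1.97 in siEgr2, so that S1pr3 was lower relative to S1pr1 in every siEgr2 library.

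**Figure D3:**
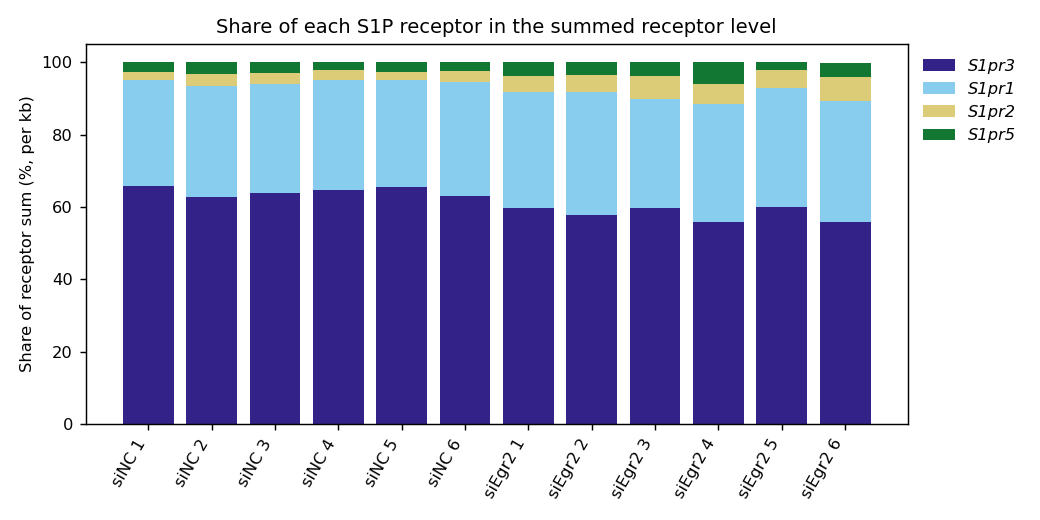
Share of each S1P receptor (%) in the summed receptor level per kb in each library, with S1pr4 at 0 and not drawn. The S1pr3 share is between 62.8% and 65.8% in siNC and between 55.9% and 60.1% in siEgr2.

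Markers of the cell types that such cultures can hold were examined beside the receptors. The marker lists were chosen with earlier results of these data known, so their counts carry no inference. Over all tested genes, 5.08% were called lower and 2.63% higher in siEgr2. Of 10 astrocyte markers, all of them tested, 5 were called lower in siEgr2 and none higher, with a median log2 fold change of -0.58. These were Gfap (-0.56), Slc1a3 (-0.85) and Aqp4 (-0.80), the most abundant, and, named after their values were seen, Slc1a2 (-0.61) and Aldh1l1 (-0.74). The sum of the 10 ranged from 8295 to 8995 CPM in siNC and from 5321 to 6011 CPM in siEgr2, and none was at 0. S1pr3 amounted to 3.06% to 3.31% of that sum in siNC and 2.15% to 2.5% in siEgr2, and S1pr1 to 0.998% to 1.08% and 0.817% to 0.989%. Relative to this sum, of which Gfap was the largest part, S1pr3 differed by -0.46 and S1pr1 by -0.21 on the log2 scale. Against single markers, the log2 fold change of S1pr1 (-0.81) lay between those of Slc1a3 (-0.85) and Aqp4 (-0.80), and that of S1pr3 (-1.06) was below those of all 10. How much of the lower receptor level goes with the astrocyte markers was not tested.

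Of 12 OL markers, such as Mbp (-0.28) and Cnp (-0.10), 0 were called by edgeR, DESeq2 or limma-voom, and 6 were lower at an unadjusted p under 0.05 in edgeR. Their sum was 7725 to 8853 CPM in siNC and 7300 to 7614 CPM in siEgr2. S1pr5 amounted to 0.0645% to 0.0955% of it in siNC and to 0.0377% to 0.0982% in siEgr2, with full overlap. Of 8 precursor markers, 2 were called higher and none lower, with a median log2 fold change of 0.27 and a sum of 5109 to 5463 CPM in siNC and 6341 to 6467 CPM in siEgr2. The called ones, named after their values were seen, were Pdgfra (0.56) and Cspg4 (0.56). The 3 with the highest level, Olig1 (0.26), Ptprz1 (0.15) and Gpr17 (0.03), were not called, Olig1 and Ptprz1 only because of the fold threshold. By the adjusted p alone 6 of the 8 precursor markers were higher and 0 lower, against 8.57% and 11.3% of all tested genes.

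Of 10 endothelial markers 5 were tested, of which Kdr (0.13), Slco1a4 (-0.93) and Cdh5 (0.05) were the most abundant. Slco1a4 and Flt1 (-1.35; named after its value was seen) were called lower, and Cldn5 was at 0 in all libraries. The sum of the 10, 52.0 to 63.7 CPM in siNC, was below the level of S1pr1 in each of these libraries. Most of it was Kdr (mean 25.6 CPM in siNC) and Slco1a4 (24.3 CPM), while Pecam1, Cldn5, Tek, Tie1 and Esam did not pass the low-count filter. In siEgr2 the sum was 39.3 to 51.1 CPM, where S1pr1 stood at 88.7% to 134% of it. Among 9 fibroblast and pericyte markers 8 were tested, with sums of 820 to 1369 CPM in siNC and 841 to 1037 CPM in siEgr2. The collagen genes Col1a1 (-0.16), Col1a2 (-0.27) and Col3a1 (-0.11) were not called, and the 3 called lower, named after their values were seen, were Pdgfrb (-0.56), Rgs5 (-0.78) and Anpep (-0.72). S1pr3 amounted to 18.5% to 33.8% of the sum in siNC and to 12.8% to 17.3% in siEgr2. Microglia markers reached a sum of 3.52 to 7.24 CPM in siNC and 2.20 to 5.87 CPM in siEgr2, with Aif1 and Itgam at 0 in all libraries, and 0 of the 3 tested were called by edgeR, DESeq2 or limma-voom, or passed an unadjusted p under 0.05 in edgeR. Of 10 neuron markers 9 were tested and 1, Stmn2 (-0.91; named after its value was seen), was called lower, with sums of 421 to 679 CPM in siNC and 413 to 650 CPM in siEgr2. The most abundant were Map2 (0.23), Tubb3 (-0.27) and Eno2 (0.10). The part of these cell types in the S1P gene values was not tested.

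The genes whose values were most alike to those of each receptor were sought among 15044 tested genes whose mean log2 CPM was 0 or higher, by the root mean square difference of centered log2(CPM + 0.5) over the 12 libraries. All points share the libraries and their depth, and for S1pr1 and S1pr3 the measure is set mainly by the difference between the groups. For S1pr1 they were Slc1a3, a glutamate transporter of astrocytes (difference 0.0719), Cybrd1, a ferric reductase (0.0726), and Mlc1, a membrane protein of astrocyte endfeet (0.0760), where the median candidate was at 0.458. For S1pr3 they were Igfbp5, a binding protein of insulin-like growth factors (0.0754), Pdpn, the membrane glycoprotein podoplanin (0.102), and Cybrd1 (0.105), with the median candidate at 0.567. For S1pr2, Rbpms (0.105), Mast3 (0.107) and Dmxl1 (0.108) were nearest, with log2 fold changes of 0.06, 0.10 and 0.03. For S1pr5 the nearest genes, Gm4524 (0.171), Hspa1a (0.172) and B3galt5 (0.178), were farther away than those of the other receptors.

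**Figure D4:**
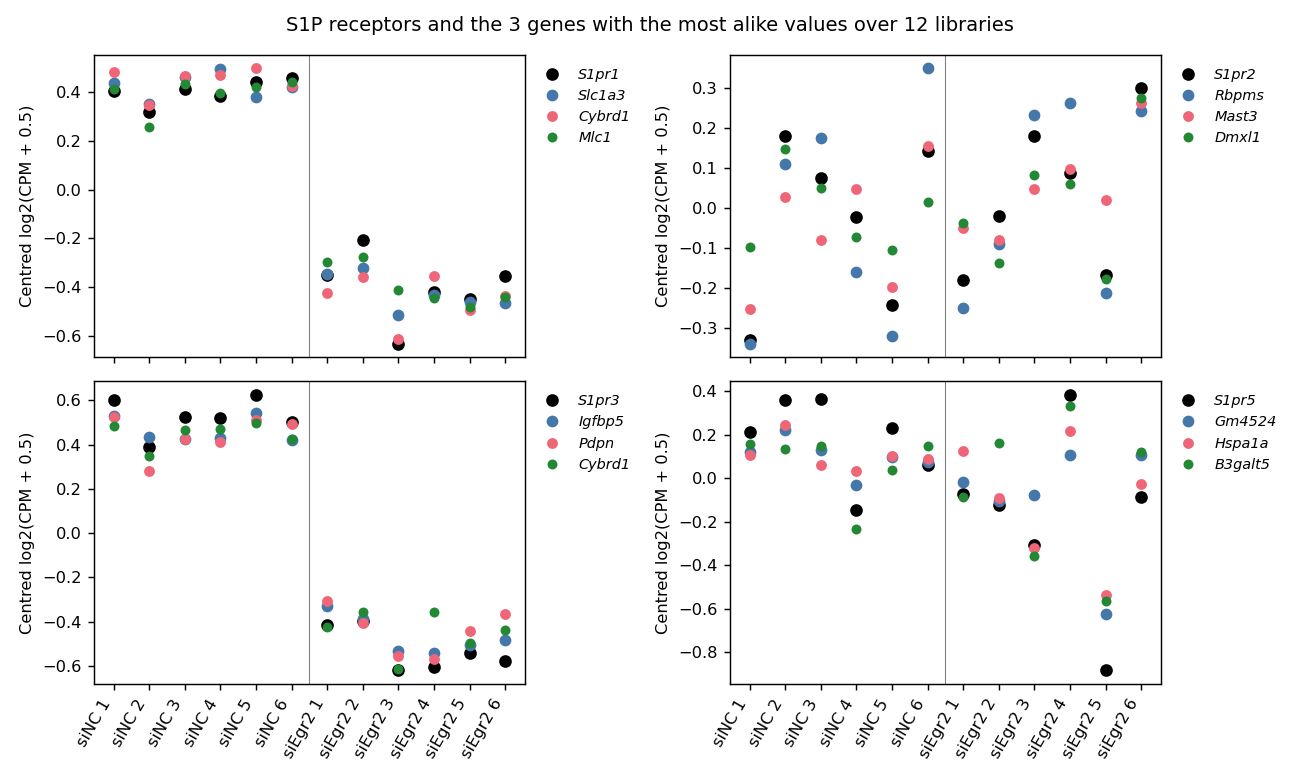
Centered log2(CPM + 0.5) of each tested S1P receptor (black) and the 3 genes with the smallest root mean square difference from it (colors) in the 12 libraries. S1pr1 and S1pr3 and the genes beside them are above 0 in all siNC and below 0 in all siEgr2 libraries, whereas S1pr2 and S1pr5 spread over both signs in at least 1 group.

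The wider pathway was described by lists of genes. These lists were chosen with earlier results of these data known, so their calls and p-values carry no inference. Over all tested genes, 5.08% were called lower and 2.63% higher in siEgr2. Of 11 other genes that dephosphorylate, carry or move S1P and related lipids or clear its breakdown product, 8 were tested and 1 was called, lower in siEgr2. This was Plpp1, a lipid phosphate phosphatase of the cell surface, with 21.3 ± 1.18 CPM in siNC and 12.7 ± 0.966 CPM in siEgr2 (SD, n = 6). On the log2 scale it fell by 0.74 with a standard error of 0.077 (adjusted p = 4.58e-06, edgeR's quasi-likelihood test). The most abundant genes of the list, Plpp3, a phosphatase of the same family (270 ± 19.1 and 200 ± 5.08 CPM, log2 fold change -0.44), and Mfsd2a, a transporter of lysophosphatidylcholine (-0.45), met the adjusted p threshold and missed that on the fold. So did Sgpp1, the S1P phosphatase of the endoplasmic reticulum, in the other direction (0.32; named after its value was seen). The median of the list was -0.27, against 0.0046 over all tested genes.

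Of 24 genes that make ceramide or free sphingosine from it, 20 were tested. With edgeR 0 were called, as with DESeq2 and limma-voom, while 7 passed an unadjusted p under 0.05, 2 higher and 5 lower. Their log2 fold changes lay between -0.31 and 0.27, with a median of -0.09. Cers2, the synthase of very long chain ceramides (160 ± 5.53 and 142 ± 10.9 CPM, -0.18), and Asah1, the lysosomal ceramidase (-0.13), were the most abundant.

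Of 18 genes of G protein subunits and of signaling downstream of the receptors, 17 were tested and 0 were called by edgeR, DESeq2 or limma-voom, with 2 higher and 6 lower at an unadjusted p under 0.05 in edgeR and a median log2 fold change of -0.05. The most abundant were Rac1, a small GTPase (394 ± 197 and 504 ± 23.0 CPM, SD, n = 6), whose siNC libraries spread widely, and Gnai2, an inhibitory G protein subunit (449 ± 16.2 and 410 ± 30.6 CPM). Of 9 genes comprising the lysophosphatidic acid and cannabinoid receptors and the enzyme Enpp2, 6 were tested and 0 called by any of the 3 tools, 1 of them lower at an unadjusted p under 0.05 in edgeR, with a median of -0.02. Enpp2, which makes lysophosphatidic acid, had 327 ± 27.1 and 341 ± 29.2 CPM, and Lpar1, a receptor for it in OLs, 24.6 ± 3.97 and 22.4 ± 3.56 CPM (SD, n = 6).

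Of 12 genes known to rise when S1P receptors signal, 11 were tested. In siEgr2, 7 were called lower and none higher, against 5.08% and 2.63% of all tested genes. The median log2 fold change was -0.63, against 0.0046 over all tested genes. As this list was chosen with earlier results of these data known, its values are a description. Lif, a cytokine, had a log2 fold change of -1.32 (standard error 0.24), Hbegf, a ligand of the epidermal growth factor receptor, -1.08 (standard error 0.12), and Ptgs2, the inducible cyclooxygenase, -1.08 (standard error 0.13). Their adjusted p-values in edgeR's quasi-likelihood test were 9.60e-04, 1.71e-05 and 2.40e-05. Also called were Ccn1, a secreted matrix protein, at -0.64, and, named after their values were seen, Tagln (-0.63) and Acta2 (-0.57), which belong to contractile cells. The most abundant gene of the list besides Ccn1 was Vcl, an adhesion protein, which was not called (-0.35). These genes also respond to many other signals, Acta2 and Tagln mark pericytes and muscle-like cells as well, and no S1P receptor activity was measured.

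**Figure D5:**
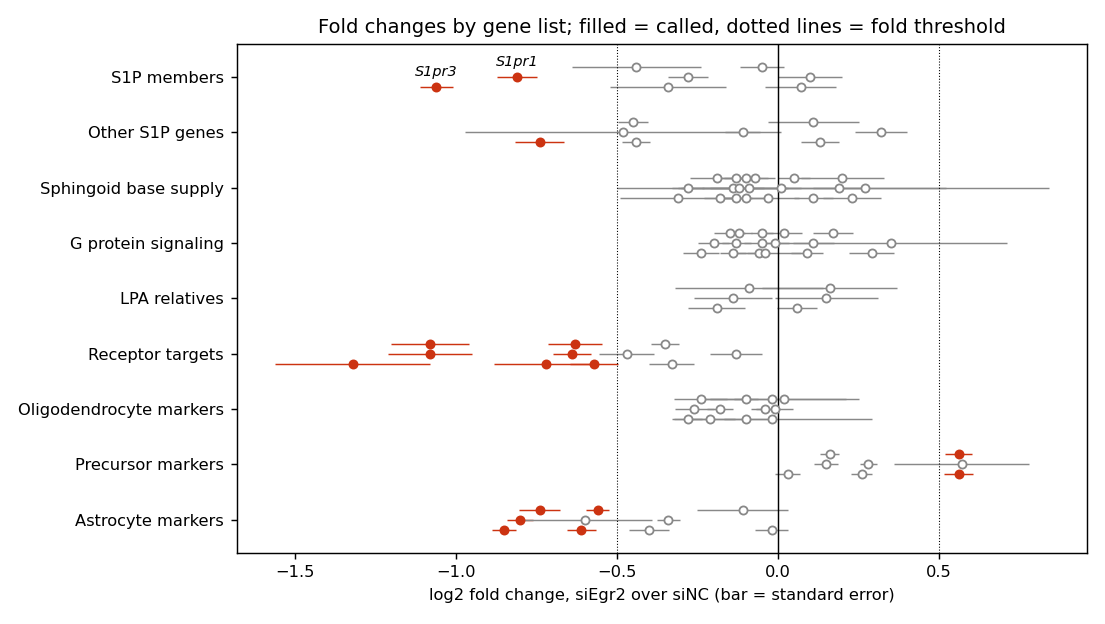
Log2 fold change of siEgr2 over siNC for every tested gene of the S1P family, of 5 related lists and of 3 marker lists, with standard errors. Filled red points are called genes and dotted lines the fold threshold of 0.5 in either direction. Called points are lower in siEgr2 for the S1P family (2 of 8), other S1P genes (1 of 8), receptor targets (7 of 11) and astrocyte markers (5 of 10), and higher for precursor markers (2 of 8).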

How the data were processed

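RNA-seq was performed on differentiated primary OLs in 2 groups of 6 libraries, grouped by their titles. Per the methods of the study, the authors extracted total RNA with TRIzol and sequenced 50 bp reads on the Illumina platform. They deposited raw counts per gene symbol, without normalization. The submitters' processing notes name mm10, and the aligner, the counting program and the annotation are not given in the sources used here. A blank entry was left out (1 in all).

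The members, gene lists and alternatives were chosen with earlier results of these data known. The counts were fitted with edgeR 4.0.16 under R 4.3.3, using filterByExpr, TMM, the quasi-likelihood test with robust estimation over 16600 genes and Benjamini-Hochberg adjustment. Standard errors are the absolute log2 fold change divided by the square root of F. Lengths, overlaps, coding sequences and shared stretches of 50 bases came from GENCODE M21 (GRCm38), and motifs were searched on both strands of RefSeq promoters. Coding sequences were aligned with Biopython 1.88 in place of proteins, which were not used here. The fit was tested on simulated counts before use. Alternatives included DESeq2 1.42.0 and limma-voom (limma 3.58.1), other scalings and filters, a replicate block, thinning, and leaving out structural RNA genes or single libraries. Genes named are the members, Egr2 and Rn18s-rs5, the genes most alike to each receptor, from each pathway list the called genes (up to 4) and the 2 most abundant, and from marker lists the 3 most abundant, unless stated otherwise. Some genes that this rule names are not reported here. Depth was 8034251 to 39383014 counts per library, and precision is lowest for S1pr5 and Sphk1, which had the largest standard errors among the members.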

Additional observations from a re-analysis of the deposited data

Results flagged for a closer look

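Among 16 sets of 6 values, the 8 tested members in each group, 1 single library stood apart from the rest of its group, where chance gives about 0.8. Sphk2 had 44.5 CPM in siEgr2 replicate 6, against 35.3 to 38.4 CPM in the other siEgr2 libraries. Without this library the log2 fold change of Sphk2 was -0.10 in place of -0.05, and it was not called in either case.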

How the results depend on the processing

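S1pr1 and S1pr3 stayed called and lower in siEgr2 under all 22 alternative fits, with log2 fold changes of -0.99 to -0.76 and -1.24 to -1.03. With total count scaling, 4 members were called lower, S1pr5 (-0.53) and Sphk1 (-0.63) in addition, 3 of the other S1P genes were called, and S1pr2 (-0.12) and Spns2 (-0.08) changed sign. That scaling moved the median of all tested genes to -0.18 and called 237 genes higher and 1737 lower, in place of 437 and 844. A log2 fold change over 1 left 1 member (S1pr3), 0 other S1P genes and 3 receptor targets, with 1.07% of all tested genes higher and 1.18% lower. Without a fold threshold, 3 members (Sgpl1 in addition), 10 receptor targets, 4 other S1P genes, 2 of the ceramide and sphingosine genes and 6 of the G protein genes passed, with 8.57% of all tested genes higher and 11.3% lower. The shorter Egr motif was found in the promoters of 1 member, in place of 0. With each library left out in turn, 2 members were called lower in every fit, 0 higher, 7 to 8 receptor targets, 1 of the other S1P genes and 0 in the remaining lists. Of all 16133 to 17409 genes tested in these fits, 728 to 893 were called lower and 386 to 468 higher. In these fits the log2 fold changes ran from -0.53 to -0.29 for Sphk1 (lowest in size without siNC replicate 2), -0.49 to -0.24 for S1pr5, -0.10 to -0.03 for Sphk2, 0.01 to 0.11 for S1pr2 and 0.02 to 0.16 for Spns2, none of them called, and the difference in S1pr3 share ran from -6.49 to -5.66 percentage points. Thinning every library to the smallest total, which matches the total count but not the ribosomal share, called 265 genes higher and 627 lower, and left S1pr1 and S1pr3 called. Under it the log2 fold changes of S1pr2, S1pr5 and Sphk2 were 0.21, -0.65 and -0.18, none of them called, S1pr5 by a narrow margin in its adjusted p. Replicate numbers were not used to pair the libraries in the main fit, and the labels give no pairing. The deviations of same-numbered libraries correlated at -0.04 to 0.04, and 2 of 6 numbers matched their own best. Counting error also lowers such correlations, so a shared culture or batch is not excluded. With the replicate number as a block, 2 members were called lower, 0 higher, and the median of the members was -0.33, with 349 of all genes called higher and 775 lower. S1pr5 and Sphk1 had the fewest counts of the tested members, 22 to 100 and 20 to 50 per siEgr2 library.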
